A study of Mus musculus with 4 samples.

Results

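Macrophage and antigen-presentation marker RNA was examined in libraries of sorted muscle stem cells (MuSCs), using 10 genes picked by their symbol: Lyz2, Cd74, C1qa, C1qb, C1qc, Ctss, Tyrobp, Fcer1g, Csf1r and Adgre1. All 10 were present among the 19353 genes of the count table. The cells came from the plantaris, a calf muscle that is overloaded when the tendons of its neighbouring muscles are cut (tenotomy), and the comparison was between 2 libraries from sham-operated muscle and 2 libraries from overloaded muscle at 4 days after surgery. Every library came from Pax7-CreERT2:Rosa-YFP mice, in which a tamoxifen-activated Cre driven by Pax7, the transcription factor of MuSCs, switches on yellow fluorescent protein (YFP). Cells were sorted by YFP at 100 cells per tube, and although mononuclear cells were stained in the same protocol with antibodies to leukocyte, endothelial and other surface antigens, the sort of these cells is described by YFP alone. The age of the mice was not given for this experiment, and separate animals were not stated as the source of the libraries, so that the p-values measure the spread between these libraries, which may be technical.

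Macrophages are phagocytes of the myeloid lineage that settle in muscle and gather there after injury. They secrete the complement starter C1q and lysozyme, digest engulfed protein with lysosomal cathepsins, and, once induced to do so, show peptides to T cells on class II molecules of the major histocompatibility complex (MHC). Their receptors signal through small adaptors that carry a tyrosine-based activation motif (ITAM), and their survival depends on the CSF1 receptor.

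Libraries were made by CEL-Seq2, in which each captured transcript is tagged near its poly(A) end with a unique molecular identifier (UMI). A count was therefore a number of molecules, with no dependence on transcript length, and counts of different genes were compared directly. Sequencing depth was 269683 and 260488 UMIs in the sham libraries and 387955 and 483528 UMIs after tenotomy. All 10 MuSC markers examined were detected in each library, including Pax7 at 118 and 107 UMIs in sham against 108 and 137 after tenotomy. Levels are given as CPM, the UMIs of a gene scaled to a common total (TMM scaling over the genes tested), and 3 UMIs were worth 13.1 and 13.6 CPM in the sham libraries but 7.80 and 6.08 CPM in the tenotomy libraries.

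The sham libraries were almost empty of the 10 genes. Summed over all of them, 0 and 1 UMIs were counted in sham, against 78 and 202 UMIs after tenotomy. The tenotomy sums made up 0.0201% of the UMIs of the first library (95% exact binomial interval 0.0159 to 0.0251) and 0.0418% of the second (0.0362 to 0.0480), whereas the count of 0 in the first sham library, taken as at most 3 UMIs of its total, allows a share of up to 0.00111%. The single UMI of the second sham library, from C1qc, was 0.000384% of its total. The summed level after tenotomy was 306 ± 146 CPM (SD, n = 2), and the ratio of pooled counts between the groups was 144 (95% exact interval 25.6 to 5692). All such intervals, here and below, take in counting error and nothing else. The exact two-sided permutation test of the summed level gave p = 0.33, the smallest value that 2 libraries against 2 can give.

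**Figure D1:**
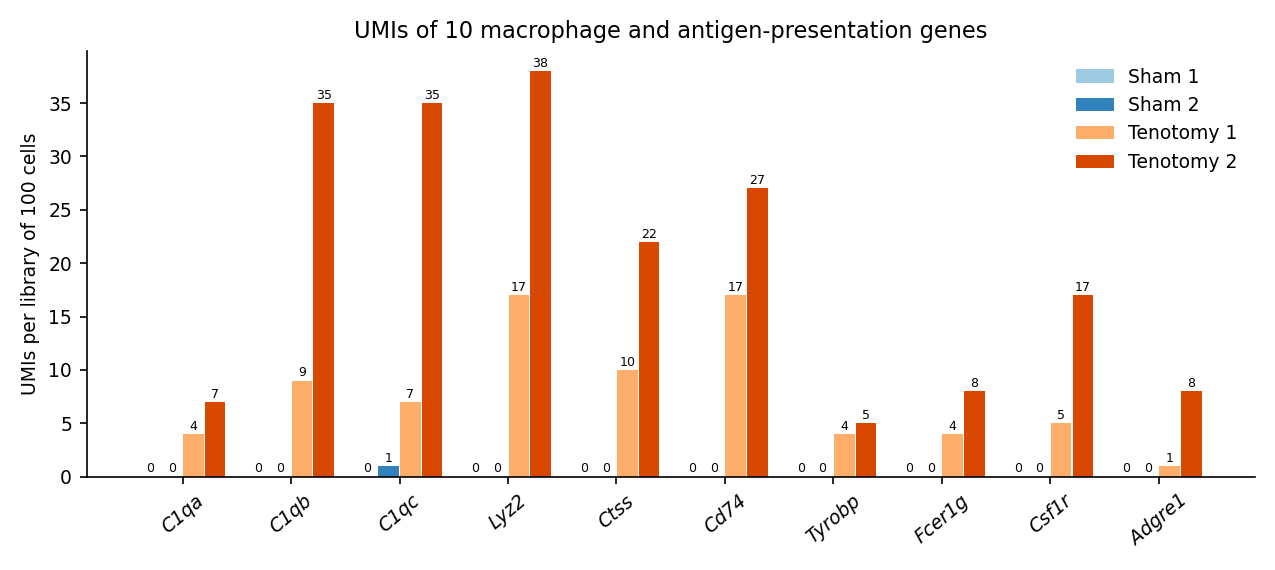
UMIs of each of the 10 genes (vertical axis, UMIs per library of 100 cells) in the 2 sham libraries (blue) and the 2 tenotomy libraries (orange), with the count above each bar. The sham bars are at 0 apart from 1 UMI of C1qc, and the second tenotomy library holds the taller bar for each gene.

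For each of the 10 genes, both tenotomy libraries lay above both sham libraries. Over all genes of the table the same was true of 27.6%. The libraries after tenotomy were also the larger ones, and 3847 genes had no UMI in sham. Of these, 292 had at least 9 UMIs after tenotomy, the lowest total of any of the 10 genes, and 9 of the 10 were among them. Only 19 genes without a sham UMI had a higher tenotomy total than Lyz2. Because the cells of a tube were pooled, more cells carrying these RNAs and more of these RNAs per cell cannot be told apart, nor can it be told whether they lay in the same cells as Pax7.

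The 3 chains of C1q, the protein that binds antibody or dying cells and starts the classical complement pathway, assemble together in equal numbers. Their genes are neighbours on the minus strand of chromosome 4 (GRCm38, GENCODE vM21), within 18675 bp, with C1qb at chr4:136880129-136886187, C1qc at chr4:136889804-136893065 and C1qa at chr4:136895917-136898803, and each has 3 exons. The sequence just ahead of a gene's start was searched for GAGGAA, the core letters bound by PU.1, the master transcription factor of macrophages, on both strands and in the 250 bases before the start (RefSeq, GRCm38.p6). A sequence was at hand for 5 of the 10 genes, and 3 of the 5 held the letters, against 23.3% of all 32851 windows. The 3 stretches that held the letters are shown, with the match in capitals (TTCCTC is the same core read on the other strand). Each is given 5′ to 3′ on the strand of its gene, and a role of PU.1 in these counts was not tested.
C1qb, chr4:136886201-136886300, minus strand: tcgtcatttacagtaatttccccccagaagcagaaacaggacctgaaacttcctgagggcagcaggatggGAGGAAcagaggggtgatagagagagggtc
C1qc, chr4:136893066-136893164, minus strand: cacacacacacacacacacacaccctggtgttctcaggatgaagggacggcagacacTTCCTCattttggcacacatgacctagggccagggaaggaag
Ctss, chr3:95526586-95526685, plus strand: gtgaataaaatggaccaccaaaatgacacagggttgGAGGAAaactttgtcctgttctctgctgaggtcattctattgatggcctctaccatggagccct
The matches begin at positions -30, -193 and -164 from the RefSeq start. A match is a description of the letters and not a measured site, and the windows of Lyz2 and Fcer1g did not hold these letters.

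C1qb was counted at 0 and 0 UMIs in sham and at 9 and 35 UMIs after tenotomy. C1qc was counted at 0 and 1 UMIs in sham and at 7 and 35 after tenotomy. C1qa was counted at 0 and 0 UMIs in sham and at 4 and 7 after tenotomy. All 3 chains were thus separated between the groups, with the second tenotomy library the higher. C1qb reached 47.1 ± 33.6 CPM after tenotomy (SD, n = 2). Set against a floor of 3 UMIs over both sham libraries, its UMIs pooled over both tenotomy libraries were at least 7.52-fold higher, and every such bound here is a ratio of pooled counts, which weights the larger library more than the mean level does. C1qa reached 12.3 ± 2.67 CPM, at least 1.88-fold higher by the same floor. For C1qc, which has a sham UMI, the ratio of pooled counts was 21.5 (95% exact interval 3.66 to 871). C1qa, at 11 UMIs in all after tenotomy, was the lowest of the chains, against 44 for C1qb and 42 for C1qc.

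Lysozyme M, encoded by Lyz2, is an enzyme that cuts bacterial cell walls and is a standard marker of macrophages and granulocytes. Lyz2 (chr10:117277331-117282321, minus strand, 4 exons) was counted at 0 and 0 UMIs in sham and at 17 and 38 after tenotomy. It was absent from both sham libraries and had the largest tenotomy level of the 10 genes, 60.6 ± 23.2 CPM (SD, n = 2), at least 9.40-fold higher than the sham floor. Its close paralog Lyz1 (chr10:117287797-117292868) lies beside it, and reads shared between them could be split by the counting. Lyz1 was counted at 0 and 0 UMIs in sham and at 1 and 5 after tenotomy.

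Cd74 encodes the invariant chain, which keeps the peptide groove of class II molecules closed on their way to the endosome, and Ctss encodes cathepsin S, the protease that trims the invariant chain away. Cd74 (chr18:60803848-60812652, plus strand, 9 exons) was counted at 0 and 0 UMIs in sham and at 17 and 27 after tenotomy. Ctss (chr3:95526786-95556403, plus strand, 8 exons, overlapping the pseudogene Hmgb1-ps5) was counted at 0 and 0 UMIs in sham and at 10 and 22 after tenotomy. Both were seen in the tenotomy libraries and in neither sham library. Cd74 reached 49.4 ± 7.41 CPM (SD, n = 2), at least 7.52-fold higher than the sham floor, and Ctss reached 35.3 ± 13.1 CPM, at least 5.47-fold higher.

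Tyrobp encodes DAP12 and Fcer1g encodes the Fc receptor gamma chain, the ITAM adaptors of activating receptors in myeloid cells. Tyrobp (chr7:30413760-30417585, plus strand, 5 exons) was counted at 0 and 0 UMIs in sham and at 4 and 5 after tenotomy. Fcer1g (chr1:171229572-171234365, minus strand, 5 exons) was counted at 0 and 0 UMIs in sham and at 4 and 8 after tenotomy. The adaptors were thus detected in both tenotomy libraries, at low counts. Tyrobp reached 10.3 ± 0.194 CPM (SD, n = 2), at least 1.54-fold higher than the sham floor, and Fcer1g reached 13.3 ± 4.10 CPM, at least 2.05-fold higher.

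Csf1r encodes the receptor for CSF1 and IL-34, on which macrophage survival depends, and Adgre1 encodes the adhesion receptor F4/80, the classical surface antigen of mouse macrophages. Csf1r (chr18:61100598-61132149, plus strand, 21 exons) was counted at 0 and 0 UMIs in sham and at 5 and 17 after tenotomy. Adgre1 (chr17:57358691-57483527, plus strand, 22 exons) was counted at 0 and 0 UMIs in sham and at 1 and 8 after tenotomy. Csf1r overlaps Hmgxb3 on the opposite strand, and the strand setting of the counting was not stated. Csf1r reached 23.7 CPM on average after tenotomy, at least 3.76-fold higher than the sham floor. Adgre1 reached 9.40 ± 9.62 CPM (SD, n = 2), at least 1.54-fold higher, and its separation from sham rested on 1 UMI in the first tenotomy library.

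In order of their tenotomy level the genes ran Lyz2, Cd74, C1qb, C1qc, Ctss, Csf1r, Fcer1g, C1qa, Tyrobp and Adgre1. Each neighbouring pair in this order differed by less than the larger of its SDs, so that with 2 libraries the order is not resolved from one gene to the next.

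Only 2 of the 10 genes, Lyz2 and Cd74, had enough counts to pass the filter for the test across 7228 genes, and each passed only through its tenotomy counts, so that a difference was bound to follow. Both were called higher after tenotomy at an adjusted p under 0.1, where 25.8% of all tested genes were called higher and 26.3% lower. The fitted log2 fold change was 7.38 (SE 1.17, 95% interval 4.90 to 9.85) for Lyz2, with an adjusted p of 1.18e-04 in edgeR's quasi-likelihood test. For Cd74 it was 7.07 (SE 1.11, 95% interval 4.71 to 9.42), with an adjusted p of 1.11e-04 in the same test. These fold changes depend on the prior count, since sham was at 0, and with a prior count of 2 they were 3.50 and 3.22. With library offsets fitted by loess to flatten the fold changes against abundance, neither was called, at log2 fold changes of 6.84 for Lyz2 (adjusted p = 0.12 in edgeR) and 6.52 for Cd74 (adjusted p = 0.191). Without such offsets the fold changes depended on abundance. With the tested genes divided into 10 equal classes by abundance, the least abundant class, which held Cd74, had a median log2 fold change of 0.53 with 38.0% called higher, and the most abundant had a median of -0.74 with 5.81% called higher. With no filter, all 10 genes were called higher by edgeR, against 12.7% of 19353 genes, with Adgre1 the weakest (adjusted p = 0.0812).

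The tenotomy libraries differed from each other. The second held 2.08 times the share of summed UMIs of the first (95% exact interval 1.59 to 2.73, Fisher's exact test, two-sided p = 1.17e-08), a test that compares those libraries and not the conditions. Each of the 10 genes had a share at least as large in the second library. The ratio was largest among well-counted genes for C1qc, 4.01 (1.76 to 10.7), and C1qb, 3.12 (1.47 to 7.38). It was 1.79 (0.988 to 3.39) for Lyz2 and 1.27 (0.670 to 2.49) for Cd74, intervals that include 1. Taken as groups, the C1q chains had a ratio of 3.09 (1.87 to 5.34) and the other 7 genes a ratio of 1.73 (1.26 to 2.40). Without the second tenotomy library the summed level after tenotomy was 203 CPM, and without the first it was 409 CPM. The ratio of pooled counts to sham, 144 with both, was 91.4 without the second library, and that of C1qc fell from 21.5 to 8.20. Without the second library C1qb was at least 3.51-fold and Csf1r at least 1.95-fold higher than the sham floor, and Adgre1, at 1 UMI, had no such bound. A floor of 3 UMIs in a single sham library, 13.1 or 13.6 CPM in place of 6.66 CPM over both, would lower each bound in proportion, so that those of C1qa, Tyrobp and Adgre1 would fall below 1 and that of Fcer1g to about 1. Without the C1q chains the sums were 0 and 0 UMIs in sham against 58 and 125 after tenotomy, at least 31.3-fold higher.

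**Figure D2:**
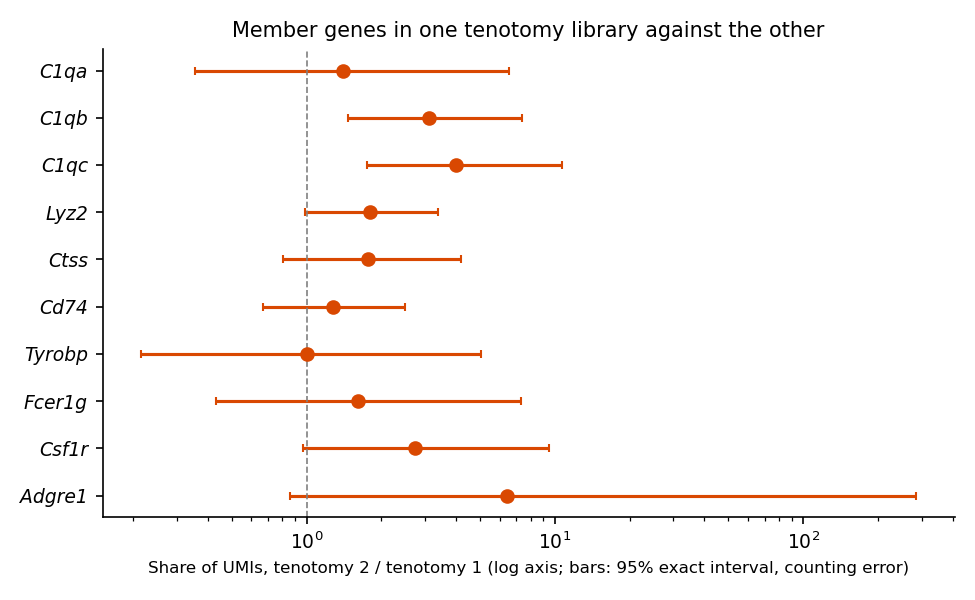
Share of each gene's UMIs in the second tenotomy library divided by its share in the first (horizontal log axis), with bars for the 95% exact interval of counting error and a dashed line at 1. C1qb and C1qc lie above 1 with their whole intervals, and the intervals of the other 8 genes include 1.

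Other macrophage and monocyte markers were examined as a further list. Of 22 named genes, 20 could be read, 13 had both tenotomy libraries above both sham libraries (27.6% of all genes did), and the list summed to 33 and 30 UMIs in sham against 179 and 321 after tenotomy. The most abundant was Lgals3, encoding galectin-3, a sugar-binding protein of macrophages that other cells also make, at 4 and 2 UMIs in sham against 115 and 169 after tenotomy. Like Lyz2 and Cd74, it passed the filter for the test only through its tenotomy counts, and it rose (log2 fold change 4.56, SE 0.34, adjusted p = 1.15e-07 in edgeR).

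Of these 20 genes, 14 had no UMI in sham, among them surface and secreted markers of tissue macrophages. Pf4, a chemokine of platelets and resident macrophages, was counted at 0 and 0 UMIs in sham and at 11 and 20 after tenotomy, at least 5.30-fold higher. Mrc1, the mannose receptor CD206, was counted at 0 and 0 UMIs in sham and at 3 and 26 after tenotomy, at least 4.96-fold higher. That limit rests on the second tenotomy library, since the first, with 3 UMIs, was at the floor count. Spi1, which encodes PU.1, was counted at 0 and 0 UMIs in sham and at 2 and 7 after tenotomy. The hemoglobin scavenger receptor Cd163 was counted at 0 and 0 UMIs in sham and at 1 and 8 after tenotomy. In each of these genes the second tenotomy library was the higher. Mpeg1, the macrophage perforin, was seen in the second tenotomy library alone, at 10 UMIs, and Ccr2, the receptor of recruited monocytes, at 2 UMIs there. Cd68 (2 and 4 UMIs in sham, 7 and 13 after tenotomy) and Cd14 (2 and 2 in sham, 9 and 8 after tenotomy) were also present in sham.

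The class II molecules that the invariant chain serves are built from an alpha and a beta chain. H2-Eb1 was counted at 0 and 0 UMIs in sham and at 9 and 24 after tenotomy, H2-Aa at 0 and 0 and then 8 and 19, and H2-Ab1 at 0 and 0 and then 6 and 16. Together these chains had 0 and 0 UMIs in sham against 23 and 59 after tenotomy, at least 14.0-fold higher (8.98-fold without the second tenotomy library), which is the pattern of Cd74. H2-DMa, whose product exchanges peptides on class II, was at 1 and 1 UMIs in sham and at 0 and 3 after tenotomy, and H2-DMb1 was at 4 UMIs in the second tenotomy library alone. None of these 5 class II genes passed the filter for the test.

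Class I molecules, which nearly all cells carry, did not share this pattern. B2m, the common light chain of class I, was counted at 159 and 145 UMIs in sham and at 155 and 196 after tenotomy. H2-K1 was counted at 147 and 152 UMIs in sham and at 78 and 129 after tenotomy, and H2-D1 at 115 and 125 and then 83 and 88. Of 14 genes of class I and its peptide loading, 8 were tested, 5 fell and 1 rose, against 26.3% and 25.8% of all tested genes. The gene called higher was Psmb8, an immunoproteasome subunit, at 3 and 5 UMIs in sham and at 14 and 19 after tenotomy (log2 fold change 1.06, adjusted p = 0.0842 in edgeR), which passed the filter only through its tenotomy counts. Its call was lost with the loess offsets (-0.04, adjusted p = 0.971), with the replicate number as a block (adjusted p = 0.147), in DESeq2 (adjusted p = 0.438) and in limma-voom (adjusted p = 0.144). H2-K1 fell from 664 to 232 CPM, with a log2 fold change of -1.50 (SE 0.175, adjusted p = 4.46e-06 in edgeR). B2m fell as well (log2 fold change -0.75, adjusted p = 0.00104 in edgeR), but as UMIs per tube its change was 0.21 (adjusted p = 0.33) and with the loess offsets 0.02 (adjusted p = 0.932), and the chaperones Calr and Pdia3 likewise turned from below to above 0 per tube. Only H2-K1 and H2-D1 stayed lower on that scale, where the median log2 fold change of all genes was 1.01 rather than 0.05. The heavy chains are near-identical paralogs, so that their separate counts are uncertain.

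**Figure D3:**
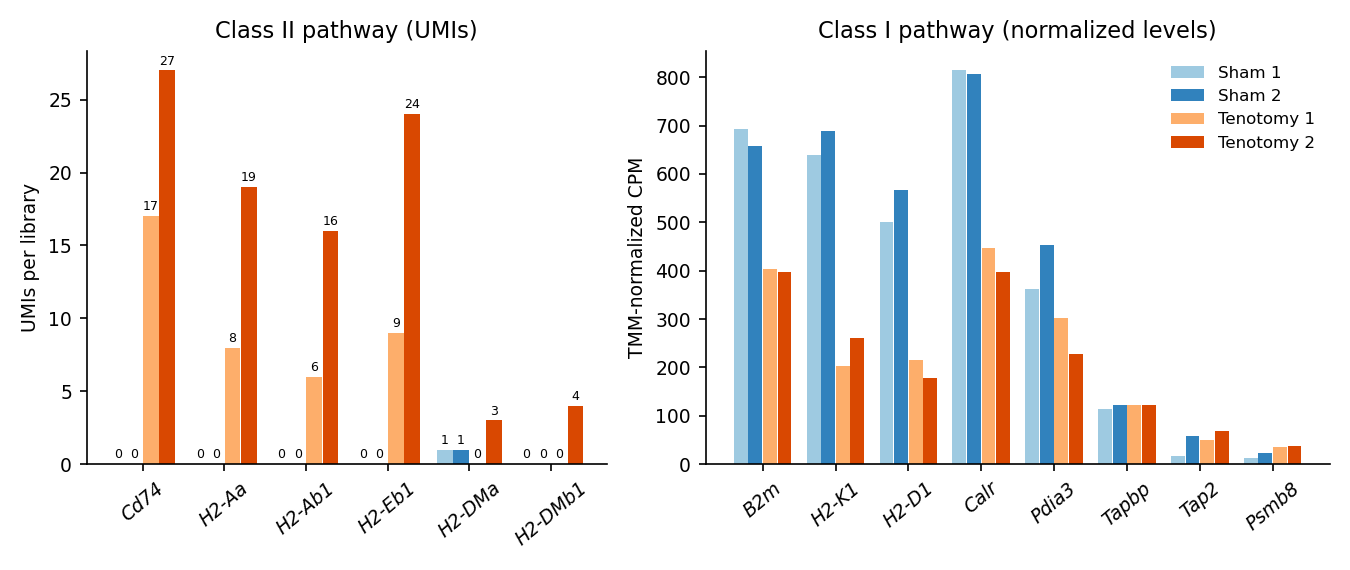
Left, UMIs per library of Cd74 and 5 class II genes; right, TMM-normalized CPM of the 8 tested genes of the class I pathway, for the 2 sham (blue) and 2 tenotomy (orange) libraries. Cd74, H2-Aa, H2-Ab1 and H2-Eb1 are at 0 in sham, while the class I genes are present in each library and the bars of H2-K1 and H2-D1 are lower after tenotomy.

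Partners of the adaptors and receptors were sparse. Of 12 named receptors and kinases that work with the ITAM adaptors, 8 were in the table and none was tested, and they summed to 0 and 2 UMIs in sham against 12 and 32 after tenotomy. The most abundant was Lyn, a Src-family kinase, at 0 and 2 UMIs in sham against 5 and 14 after tenotomy. Trem2, a receptor that pairs with DAP12, was counted at 2 UMIs in the second tenotomy library alone. Of the ligands of the CSF1 receptor, Csf1 was counted at 22 and 19 UMIs in sham against 46 and 55 after tenotomy. Its log2 fold change of 0.34 (SE 0.27) did not pass the test (adjusted p = 0.320 in edgeR). As UMIs per tube Csf1 was called higher (log2 fold change 1.30, adjusted p = 0.00485 in edgeR). On that scale the median log2 fold change of all genes was 1.01. Il34 was counted at 0 and 0 UMIs in sham against 5 and 3 after tenotomy. Unlike Csf1r itself, Csf1 was thus plentiful in the sham libraries.

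Of 13 complement genes beyond C1q, 4 had no UMI in sham. Serping1, the inhibitor of the C1 proteases, was counted at 185 and 175 UMIs in sham and at 151 and 241 after tenotomy, and it fell after scaling (log2 fold change -0.85, adjusted p = 5.47e-04 in edgeR). Calr, a C1q-binding chaperone, fell as well (adjusted p = 1.63e-04 in edgeR). As UMIs per tube neither was called lower, and Serping1 turned to 0.12 (adjusted p = 0.602). With the loess offsets neither was called (adjusted p = 0.956 for Serping1 and 0.513 for Calr in edgeR). Among 12 lysosomal proteases and their relatives, 10 were tested, of which 4 rose, 2 fell and 4 were not called, where 25.8% of all tested genes were called higher and 26.3% lower (as UMIs per tube, 7 of the list were called higher and 0 lower). Legumain, Lgmn, rose most of the tested proteases, from 6 and 5 sham UMIs to 32 and 38 under overload (log2 fold change 1.69, adjusted p = 0.00299 in edgeR), and it passed the filter only through its tenotomy counts. Ctsl, the protease that trims the invariant chain in other cell types, fell by 0.69 on the log2 scale, but its change was 0.26 as UMIs per tube (adjusted p = 0.203 in edgeR) and 0.07 with the loess offsets (adjusted p = 0.729). All 12 genes of this list had UMIs in sham, whereas Ctss had none.

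Markers of other blood cells were read in the same libraries. Pan-leukocyte markers summed to 9 and 6 UMIs in sham and to 31 and 99 after tenotomy, and the second tenotomy library held 2.56 times the share of the first (95% exact interval 1.70 to 3.97). Srgn, a proteoglycan of leukocyte granules that other cells also make, was the most abundant at 74 UMIs in all and the one gene tested, and it rose (log2 fold change 1.25, adjusted p = 0.0276 in edgeR), having passed the filter through its tenotomy counts. Its call was lost in DESeq2 (adjusted p = 0.208), without the second sham library (adjusted p = 0.243 in edgeR) and without the second tenotomy library (adjusted p = 0.186). Ptprc, which defines leukocytes as CD45, was at 0 and 1 UMIs in sham and at 1 and 4 after tenotomy. Neutrophil markers were at 1 and 0 UMIs in sham against 2 and 1 after tenotomy, T and NK cell markers at 2 and 1 and then 3 and 5, and of the B cell markers 1 UMI of Ighm was counted in all. Of the dendritic cell markers only Zbtb46 was read, at 1 and 5 UMIs in sham and at 7 and 11 after tenotomy. No mast cell marker was in the table. Each of these lists held fewer UMIs after tenotomy than the 10 macrophage genes.

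Markers of cells that lie beside MuSCs were read as well, and their part in the result was not tested. Mural cell markers summed to 136 and 118 UMIs in sham and to 414 and 630 after tenotomy, mostly of Acta2, and both tested genes, Acta2 and Rgs5, were called higher (25.8% of all tested genes were), Rgs5 having passed the filter only through its tenotomy counts. Endothelial markers summed to 20 and 16 UMIs in sham against 49 and 51 after tenotomy, with the defining gene Pecam1 at 4 and 2 and then 11 and 7. The ratio of their pooled shares was 1.43, with an interval that includes 1 (0.964 to 2.15). The one gene tested, Tek, was at 10 and 12 UMIs in sham against 5 and 11 after tenotomy. Tek passed the filter only through its sham counts and was called lower (log2 fold change -1.41, adjusted p = 0.0154 in edgeR). That call was lost as UMIs per tube (-0.45, adjusted p = 0.451) and in DESeq2 (adjusted p = 0.195). Markers of fibro-adipogenic progenitors summed to 734 and 686 UMIs in sham against 857 and 982 after tenotomy, with Col3a1 the most abundant and its defining gene Pdgfra at 0 and 0 UMIs in sham against 2 and 0 after tenotomy. As a share of the larger tenotomy libraries they were lower, at 0.221% and 0.203% against 0.272% and 0.263% in sham, and of 4 genes tested 3 were called lower and 1 higher, where 26.3% and 25.8% of all tested genes were. As UMIs per tube 1 was called lower and 3 higher, Col3a1 among those that turned (0.43, adjusted p = 0.00539 in edgeR, against -0.53 after scaling). The one called higher on both scales, Ly6a, which encodes the surface antigen Sca-1, was at 1 and 0 UMIs in sham and at 22 and 41 after tenotomy. It was called higher (log2 fold change 4.79, adjusted p = 1.09e-04 in edgeR), again passing the filter only through its tenotomy counts, and the call was lost with the loess offsets (2.29, adjusted p = 0.104). Red blood cell markers, at 118 and 4 UMIs in sham against 17 and 231 after tenotomy, did not follow the groups. The first sham library held 118 of these UMIs and none of the 10 macrophage genes. After tenotomy the second library was the higher in both lists, at 231 and 202 UMIs against 17 and 78. The tenotomy libraries differed 10.9-fold in red blood cell markers (95% exact interval 6.66 to 19.0), and a link between these lists was not tested. MuSC markers summed to 1486 and 1242 UMIs in sham and to 1766 and 1970 after tenotomy, shares of 0.551% and 0.477% against 0.455% and 0.407%. Of the 10, all tested, 6 were called lower and 2 higher, against 26.3% and 25.8% of all tested genes, but 3 lower and 4 higher as UMIs per tube. Pax7 fell after scaling (log2 fold change -0.84, adjusted p = 6.35e-04 in edgeR) but had a change of 0.12 as UMIs per tube (adjusted p = 0.619) and of -0.22 with the loess offsets (adjusted p = 0.287). The 3 called lower as UMIs per tube were Calcr, Chodl and Cd34, at log2 fold changes of -1.64, -0.81 and -0.99. With the loess offsets these 3 were again called lower (-2.68, -1.04 and -2.04), and 4 of the list were called higher.

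**Figure D4:**
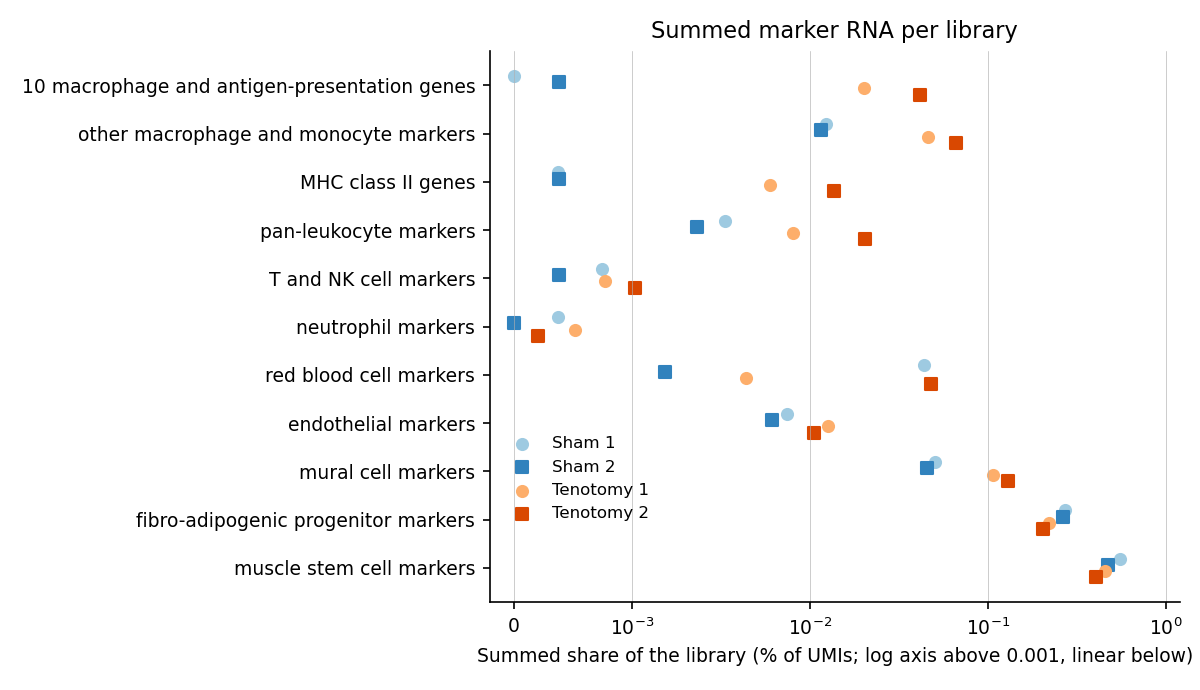
Summed share of each library's UMIs (horizontal axis in %, log above 0.001 and linear below) held by the 10 macrophage and antigen-presentation genes and by 10 other marker lists, with a point for each sham (blue) and tenotomy (orange) library. The 10 genes and the class II genes are at or near 0 in sham and separate from it after tenotomy, while red blood cell markers do not separate by group.

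The genes whose pattern over the 4 libraries lay closest to that of the summed 10 genes were sought among 9253 genes with at least 20 UMIs, by the distance between levels divided by their sum. The closest was Ctrb1, encoding a digestive protease of the pancreas, at 0 and 0 UMIs in sham against 14 and 36 after tenotomy (distance 0.00902). Sulf2, a sulfatase of heparan sulfate, followed at 0 and 0 and then 11 and 28 UMIs (0.00974), then Oasl1, an interferon-induced gene, at 6 and 15 UMIs after tenotomy (0.0130), and Srpk3, a kinase of striated muscle, at 8 and 20 (0.0130). The fifth was H2-Eb1 (0.0141). All 5 were at 0 in both sham libraries, and with 4 libraries a small distance is a description of these counts.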

How the data were processed

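The authors extracted barcodes and UMIs with UMI-tools (version 1.0.0), aligned reads to GRCm38 with HISAT2 (version 2.1.0), assigned them with featureCounts (version 1.6.4) and deposited UMI counts per gene and library, not normalized. The annotation release and strand setting are not given in the sources used here. All 19353 gene identifiers matched GENCODE vM21.

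From these counts, TMM factors (0.909 and 0.908 for sham, 1.08 and 1.12 for tenotomy) were computed in edgeR (version 4.0.16) on genes kept by filterByExpr (minimum count 10, minimum total 15), and 7228 genes were tested by glmQLFit and glmQLFTest with a single spread estimate for both groups. P-values were adjusted by Benjamini–Hochberg over the tested genes and called under 0.1, and 3732 genes had an unadjusted p under 0.05. Bounds against sham used a floor of 3 UMIs over the group, and count ratios have exact 95% (Clopper-Pearson) intervals.

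The 10 genes, the lists, the tests and the alternatives were chosen with earlier results of these data known. Besides the 10 genes, the text names the most abundant and the called genes of each list and the 5 most alike genes; further list members (such as Spi1, Cd163, Mpeg1, Ccr2, Trem2 and Lgmn) were added with their values in view. Some list members are not reported here. Alternative settings were other scalings, filters and thresholds, DESeq2 (version 1.42.0), limma-voom (limma version 3.58.1), thinned counts, the replicate block and each library left out; leaving out a tenotomy library for the bounds and count ratios was chosen after seeing the data.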

Additional observations from a re-analysis of the deposited data

How the results depend on the processing

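Depth limited the sham levels, as 3 UMIs in a sham library equal 13.1 or 13.6 CPM, and 8 of the 10 genes were too sparse for the filter. The count of the 10 genes called higher (2) was 10 with no filter, 6 with DESeq2 (which gave no adjusted p for the other 4), 1 with counts thinned to the smallest library and 0 with loess offsets for abundance, and it ranged from 2 to 6 when 1 library was left out; the lone library is then assumed to vary like the other group. Lyz2 was called in 15 of 16 alternatives (log2 fold change 3.50 to 7.79) and Cd74 in 14 of 15 (3.22 to 7.47); the exceptions were the loess offsets, at 6.84 and 6.52. The groups stayed apart for all 10 genes under the other scalings and with each library left out, and for 9 with thinned counts. The summed level of 306 CPM moved by less than its SD between libraries under the scalings, thinned counts and left-out libraries tried. For all genes, 4481 were called higher and 331 lower as UMIs per tube, and 967 higher with DESeq2, against 1868 and 1898. Of the other macrophage markers 7 were called higher with no filter, 2 with a filter of 10 counts in every library of a group, 2 with DESeq2 and 1 to 3 with 1 library left out. Of the class II genes (0 called, as none was tested) 3 were called with no filter, 3 with DESeq2 and 0 to 3 with 1 library left out. Of the class I genes called higher (1), 2 were called with library sizes alone and 3 as UMIs per tube, 0 with loess offsets, the filter of 10 counts, the replicate block, thinned counts, DESeq2, limma-voom or a threshold of 0.05, and 0 to 1 with 1 library left out; of those called lower (5), 2 stayed as UMIs per tube and 2 with loess offsets. The cause of these changes was not tested, apart from the number of genes tested, which the filters set. With the replicate number as a block, 2 of the 10 genes were called (log2 fold change 7.33 for Lyz2 and 7.05 for Cd74) and 1806 of all genes were higher; same-numbered libraries did not deviate together (r = -0.034 across genes) and share only a number.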
